A study of Homo sapiens with 8 samples.

Results

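The TRIM family promoters were taken as the promoters of every protein-coding gene of GENCODE release 44 whose symbol is TRIM followed by a number. These were 77 of 20033 protein-coding genes. The MANE Select transcript, the reference transcript agreed on for a gene, set the 5′ end of each promoter, and the canonical transcript did so for the readthrough genes TRIM6-TRIM34 and TRIM39-RPP21, which have no MANE Select transcript. A list of 10 interferon-inducible members (TRIM5, TRIM14, TRIM21, TRIM22, TRIM25, TRIM26, TRIM34, TRIM38, TRIM56 and TRIM69) was kept apart from the other 67.

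The data were peaks of H3K4me3, a histone mark of active and poised promoters, measured by ChIP-seq in U2OS, a human osteosarcoma cell line. 3 wild-type (WT) clones and 3 clones with a ZBTB48 knockout (KO) were profiled. ZBTB48 is a zinc finger factor known to bind telomeric repeats and a set of gene promoters. All 6 clones had been treated with IFNγ at 250 U/ml for 24 h, and no library without IFNγ was analysed here, so none of the values below is a response to interferon. Each library came from a different clone, and differences between single clones and differences of genotype are told apart only by the 3 clones of each genotype. A histone mark does not measure the ZBTB48 protein, so the peak lists give no check of the knockout.

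TRIM proteins carry a RING finger, B-box and coiled-coil in a row and mostly act as E3 ubiquitin ligases. Many are switched on by interferon, through STAT and IRF proteins that bind ISRE and GAS sequences near their promoters, and work in innate immunity as sensors, signalling ligases or direct restriction factors. Others act in transcription, in the cytoskeleton of muscle and nerve, or in the germ line and early embryo, where primates have gained many near-identical copies.

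The sequences just upstream of the interferon-inducible members are shown first because some of them carry the letters that interferon-activated factors are known to bind. The core of the ISRE was searched as GAAANNGAA and the GAS as TTCNNNGAA, on both strands, in the 300 bases before each 5′ end. The ISRE core letters were found in 5 of the 10 interferon-inducible members, in 3 of the other 67 (TRIM44, TRIM64C and TRIM75) and in 7.47% of all protein-coding promoters. The GAS letters were found in 1 of the 10, TRIM22, and in 7.11% of all promoters. For the 5 members with the ISRE core, the last 200 bases before the 5′ end are printed from GRCh38 on the strand of the gene, with the core in capitals.
TRIM5 (chr11:5685075-5685274, minus strand): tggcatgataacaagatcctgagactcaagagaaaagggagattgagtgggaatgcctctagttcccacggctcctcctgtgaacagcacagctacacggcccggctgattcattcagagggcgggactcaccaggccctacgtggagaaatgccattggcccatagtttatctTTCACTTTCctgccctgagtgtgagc
TRIM34 (chr11:5624801-5625000, plus strand): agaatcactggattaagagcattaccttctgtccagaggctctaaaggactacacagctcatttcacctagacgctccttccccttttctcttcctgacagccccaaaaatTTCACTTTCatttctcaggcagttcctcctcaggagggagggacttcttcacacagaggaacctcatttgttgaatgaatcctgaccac
TRIM14 (chr9:98119223-98119422, minus strand): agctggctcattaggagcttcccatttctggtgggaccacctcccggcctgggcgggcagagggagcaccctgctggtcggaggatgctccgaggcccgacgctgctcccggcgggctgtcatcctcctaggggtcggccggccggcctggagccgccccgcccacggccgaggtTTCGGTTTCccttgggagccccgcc
TRIM26 (chr6:30213407-30213606, minus strand): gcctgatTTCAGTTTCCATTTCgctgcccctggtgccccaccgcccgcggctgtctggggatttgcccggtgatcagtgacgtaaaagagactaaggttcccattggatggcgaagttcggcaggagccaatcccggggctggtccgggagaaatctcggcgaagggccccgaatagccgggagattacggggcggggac
TRIM69 (chr15:44736328-44736527, plus strand): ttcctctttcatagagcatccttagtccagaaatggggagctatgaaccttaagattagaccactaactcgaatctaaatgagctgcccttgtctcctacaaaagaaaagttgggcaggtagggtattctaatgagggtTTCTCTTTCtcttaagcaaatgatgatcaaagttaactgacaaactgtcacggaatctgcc
The ISRE core ran from 26 to 18 bases upstream of the 5′ end in TRIM5 and from 25 to 17 bases upstream in TRIM14, the closest of the 5. In TRIM34 it began 89 bases upstream, in TRIM69 61 bases upstream, and TRIM26 held 2 overlapping copies that began 193 and 187 bases upstream. TRIM21, TRIM25, TRIM38 and TRIM56 held neither set of letters in this window, which says only that these letters are not there. The telomeric repeat TTAGGG, on either strand, was in the window of 12 of the 77 members, in none of the 10 interferon-inducible ones and in 9.5% of all promoters.

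The lists were not all of one kind, and this touches every comparison of genotypes below. The median fold enrichment of a peak was 13.4 and 14 in WT replicates 1 and 2 and between 4.19 and 4.65 in WT replicate 3 and the KO libraries, and the median peak width was 2297 and 2353 bp against 1275 to 1487 bp. Covered length, the bp that peaks took up in the 3 kb before and the 3 kb after the 5′ end, followed this split over all promoters. Its median over the 14422 promoters covered in at least 1 library was 3223, 3165 and 1931 bp in WT and 1889, 1719 and 1621 bp in KO. Genotype and kind of list cannot be told apart in WT replicates 1 and 2. Covered length over the family and over the interferon-inducible list is therefore compared also as a rank within a library and as WT replicate 3 against the KO libraries.

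A library was counted as calling a promoter if any of its peaks touched the 1 kb before or after the 5′ end. 42 of the 77 TRIM promoters (54.5%) were called in all 6 libraries, 3 in some of them and 32 in none. Of all protein-coding promoters 13036 (65.1%) were called in all 6. The counts per library were 45, 45 and 43 in the WT clones and 45, 43 and 43 in the KO clones, so the libraries differed by at most 2 promoters of 77. No TRIM promoter was called in 3 of 3 WT and 0 of 3 KO libraries, out of 43 called in all WT libraries, against a background of 0.159% over all promoters. None was called in 3 of 3 KO and 0 of 3 WT libraries either, against a background of 0.0304%.

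The TRIM promoters without a peak were not spread evenly over the family. None of the 14 primate-expanded testis and embryo members (TRIM43, TRIM43B, TRIM48, the TRIM49, TRIM51 and TRIM64 copies and TRIM77) was called in any library, and without them 42 of 63 (66.7%) were called in all 6. The authors removed reads that map to several places, so a missing peak in these near-identical genes, and likewise in TRIM73, TRIM74 and TRIM16, is less certain than elsewhere. None of the muscle members TRIM54, TRIM55 and TRIM63, which sit in the sarcomere, was called at the MANE Select end, and the remaining one, TRIM72, a membrane repair protein, is described below. All 4 chromatin members with a PHD finger and bromodomain (TRIM24, TRIM28, TRIM33 and TRIM66) were called in all 6 libraries, as were all 4 members with a microtubule-binding COS box (TRIM9, TRIM36, TRIM46 and TRIM67), which are best known from neurons. The same held for the 4 members with membrane, ARF or MATH domains (TRIM13, TRIM23, TRIM37 and TRIM59). The share called in all 6 was 65.1% over all promoters. Of the 4 NHL-repeat members, TRIM3 and TRIM32 were called in all 6 libraries, and TRIM2 and TRIM71, the latter a stem cell protein, in none.

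Calls in the gene clusters on chromosomes 11 and 6 were set beside the 65.1% of all promoters called in all 6 libraries. With at most 8 genes per list, the lists were not tested against each other or against this share. All 8 members listed for the cluster on the short arm of chromosome 11 (TRIM3, TRIM5, TRIM6, TRIM21, TRIM22, TRIM34, TRIM66 and TRIM68) were called in all 6 libraries. Of the 8 members listed for the class I MHC region of chromosome 6, TRIM26, TRIM27, TRIM38 and TRIM39 were called in all 6, TRIM15 in 5, and TRIM10, TRIM31 and TRIM40 in none. The readthrough gene TRIM39-RPP21, in the same region but not in the list, was called in 3. Of 4 family proteins known by other symbols, PML, the scaffold of nuclear bodies, and MID2 were called in all 6 libraries, and MEFV and MID1 in none.

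The called TRIM promoters were richer in CpG than those without a peak. The ratio of observed to expected CpG in the 300 bases upstream had a median of 0.736 over the 42 TRIM promoters called in all 6 libraries and of 0.231 over the 32 called in none, and the medians over all promoters were 0.829 and 0.268. The interferon-inducible members stood low on this scale, with a median of 0.387 over the 9 called in all 6 libraries. Among these 9, TRIM34 had the lowest ratio, 0.139, and TRIM22 followed with 0.218, both below the median of the uncalled TRIM promoters, while TRIM25 (0.847) and TRIM26 (0.833) were near the level of the other called members. Low ratios were not confined to the interferon-inducible list. The list of the chromosome 11 cluster, which shares TRIM5, TRIM21, TRIM22 and TRIM34 with it, had a median of 0.342 over its 8 members. Its other members had 0.307 (TRIM6), 0.529 (TRIM68), 0.773 (TRIM3) and 0.792 (TRIM66). TRIM16 (1.06), TRIM50 (0.962), TRIM71 (0.902), TRIM73 (0.88) and TRIM74 (0.87) were CpG-rich and had no peak. These are descriptions over genes, with no test.

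**Figure D1:**
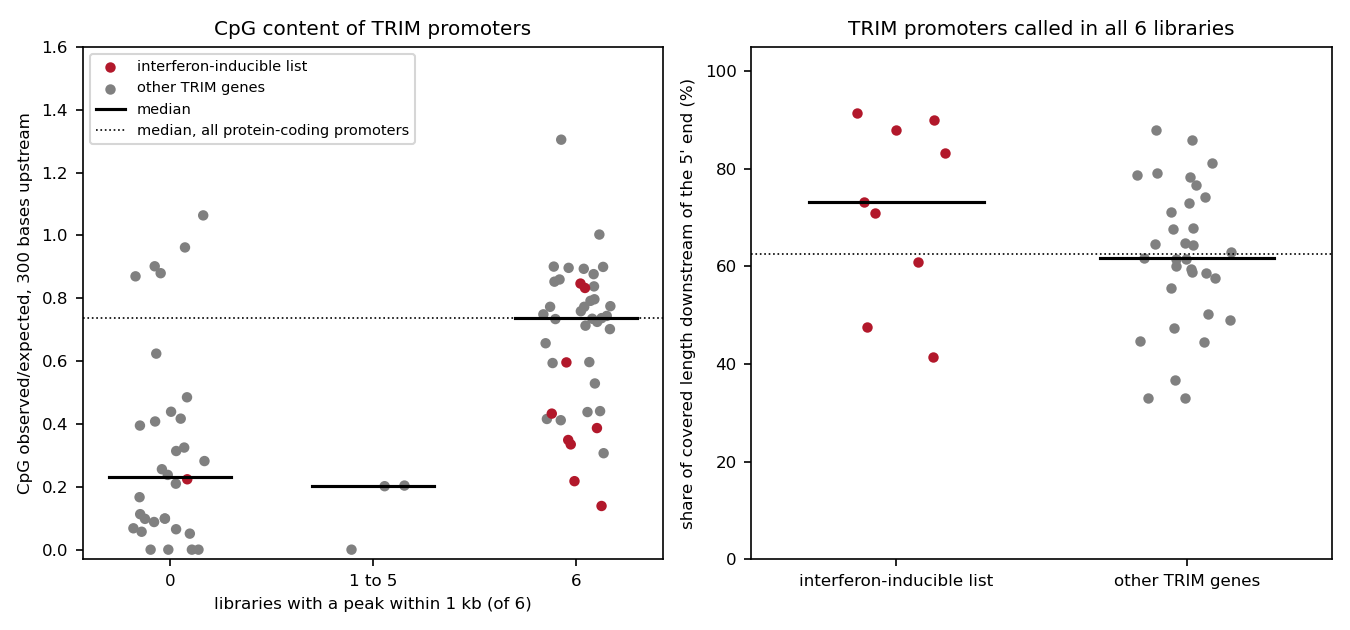
Left, ratio of observed to expected CpG in the 300 bases upstream of each of the 77 TRIM promoters, by the number of the 6 libraries with a peak within 1 kb; each point is 1 promoter. Right, share in percent of the H3K4me3-covered length lying downstream of the 5′ end for the 42 TRIM promoters called in all 6 libraries; red points are interferon-inducible members, solid bars are medians and dotted lines medians over all protein-coding promoters. Called promoters have a median CpG ratio of 0.736 against 0.231 for uncalled ones, and the interferon-inducible members have a median downstream share of 73.1% against 61.8% for the other TRIM members.

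At the 3 promoters called in some libraries the peak lay mostly to one side of the 5′ end. At TRIM15, which encodes a focal adhesion protein, the peaks covered 579 and 310 bp in WT replicates 1 and 2, 0 in WT replicate 3, and 830, 605 and 479 bp in KO replicates 1, 2 and 3. Apart from WT replicate 3 every library had a peak, and the WT and KO values overlapped. The same short peak, upstream of TRIM15, fell within 3 kb of TRIM10, whose 5′ end is 2335 bp away. At TRIM72 a peak began 715, 654 and 902 bp inside the gene in the WT libraries and 906, 1010 and 1162 bp inside it in the KO libraries, so that in KO replicates 2 and 3 it started just beyond the 1 kb window. The covered length within 3 kb of TRIM72 was 1731, 1749 and 1064 bp in WT and 1268, 840 and 679 bp in KO, with KO replicate 1 above WT replicate 3. TRIM39-RPP21 starts 1980 bp inside TRIM39, a cell cycle regulator, and its 3 calls were the far edge of the TRIM39 peak, which ended at -741, -664 and -1287 bp from its 5′ end in the WT libraries and at -994, -1205 and -1250 bp in the KO libraries.

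TRIM2, TRIM54 and TRIM69 had no peak at the MANE Select 5′ end but were called at other annotated 5′ ends, TRIM54 in 1 library. TRIM69, which is interferon-induced and acts against viral replication, had ends of other transcripts near chr15:44728988-44729142, 7386 to 7540 bp from the MANE Select end, that were called in all 6 libraries. The covered length at the first of them was 4907, 4661 and 2007 bp in WT and 1868, 1859 and 1923 bp in KO, a mean of 3858 bp ± 1608 (SD, n = 3) against 1883 bp ± 34.6 (SD, n = 3). WT replicate 3 lay beside the KO libraries at this end, and WT replicates 1 and 2 lay far above them. The ISRE core printed above for TRIM69 lies upstream of the MANE Select end, and the sequence at these other ends was not searched. TRIM2, which binds neurofilament in neurons, was called in all 6 libraries at ends 51325 and 17864 bp away from its MANE Select end, with covered lengths of 3151, 2631 and 1963 bp in WT and 1801, 1746 and 1346 bp in KO at the nearer of these ends. Another gene, ENSG00000288637, lies within 3 kb of the nearer end, and the peak cannot be assigned to 1 of the 2. The end of TRIM54 was 22262 bp from its MANE Select end, where the covered length was 802, 1161 and 841 bp in WT and 730, 757 and 775 bp in KO.

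46 TRIM promoters had covered length above 0 in at least 1 library. Their median was 3680, 3399 and 2124 bp in WT and 2064, 1872 and 1741 bp in KO, or 3068 bp ± 829 (SD, n = 3) against 1892 bp ± 162 (SD, n = 3), a difference of 1176 bp. The difference over all covered promoters was 1030 bp. The interferon-inducible members were shorter than the other TRIM members in every library. Their medians were 3460, 2757 and 1559 bp in WT and 1611, 1442 and 1332 bp in KO, a difference of 1130 bp. The other TRIM members had 3682, 3634 and 2193 bp in WT and 2251, 1893 and 1790 bp in KO, a difference of 1192 bp. Against all covered promoters the list was longer in WT replicate 1 (3223 bp over all) and shorter in the other libraries. WT replicate 3 was above the mean of the KO libraries by a median of 138 bp over the TRIM promoters and of 161 bp over all promoters.

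20 of the 46 TRIM promoters (43.5%) had a larger covered length in every WT than in every KO library, against a background of 50.8% over all promoters. None was larger in every KO library, against a background of 0.111%. Each of these 20 had an exact two-sided permutation p of 0.1, the smallest that the 20 assignments of 6 libraries allow, and an adjusted p of 0.196 over all covered promoters, so no TRIM promoter could pass 0.05 in this design. In WT replicate 3 the lead over the highest KO library was 2 bp at TRIM66, 3 bp at TRIM34 and 14 bp at TRIM36, and 128 bp at TRIM25.

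**Figure D2:**
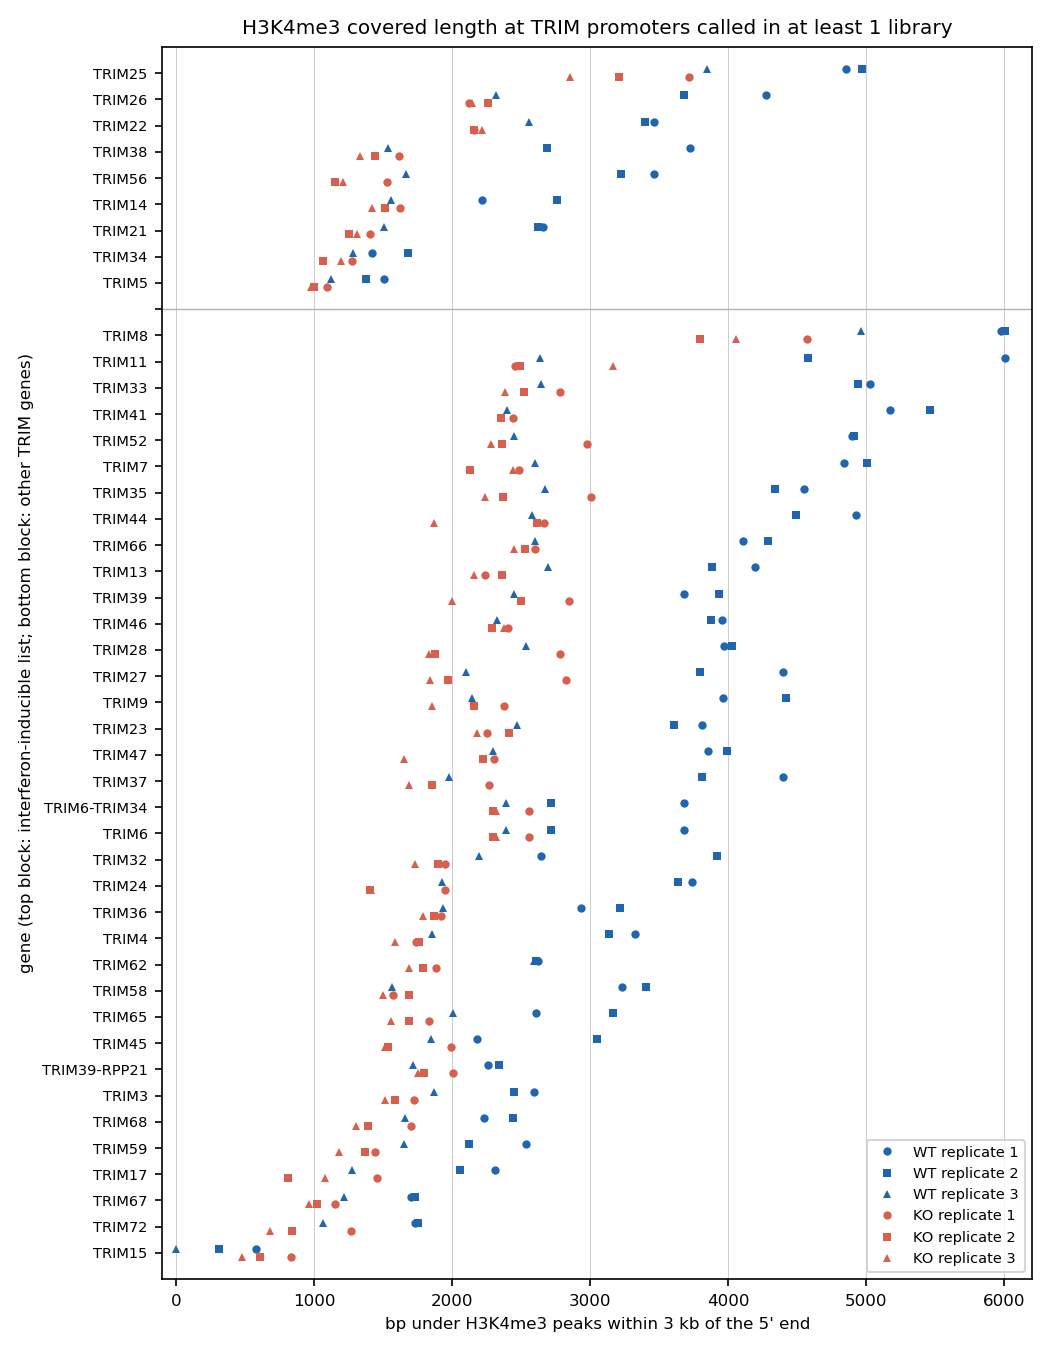
Length in bp under H3K4me3 peaks within 3 kb of the 5′ end for the 45 TRIM promoters called in at least 1 library; each symbol is 1 library (blue WT, red KO), the upper block is the interferon-inducible list and the lower block the other members, each ordered by mean. WT replicates 1 and 2 lie to the right of the other 4 libraries at most genes, WT replicate 3 lies close to the KO libraries, and 20 of the genes have every WT symbol to the right of every KO symbol.

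The interferon-inducible members were called in equal numbers in both genotypes, and their coverage was longest in WT replicates 1 and 2. 7 of the 9 covered members (77.8%) had larger values in every WT library, against 50.8% of all covered promoters and 35.1% of the other TRIM members, while TRIM14 and TRIM38 overlapped. The shares were not tested against each other, and WT replicates 1 and 2 differ from the KO libraries in kind of list as well as in genotype. By rank within a library, 1 of the 9 (TRIM56) was higher in every WT library, against 7.13% of all covered promoters. None was higher in every KO library, against 10.7%. The median rank difference, WT minus KO, was -1.2 over the list and -0.268 over all covered promoters. WT replicate 3 was above the mean of the KO libraries by a median of 141 bp over the list and 161 bp over all. TRIM25, the ligase that activates the RNA sensor RIG-I, was the widest of the 9, with 4849, 4966 and 3844 bp in WT and 3716, 3205 and 2853 bp in KO (means 4553 bp ± 617 and 3258 bp ± 434, SD, n = 3). Its peak ran from 1848 and 1965 bp upstream to 5592 and 5686 bp downstream in WT replicates 1 and 2, and from 843 bp upstream to 3404 bp downstream in WT replicate 3. In KO replicate 1 the TRIM25 peak ended 3456 bp downstream, beyond that of WT replicate 3, and in KO replicates 2 and 3 it ended at 2428 and 1954 bp.

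TRIM22, an antiviral ligase, had 3460, 3395 and 2554 bp in WT and 2157, 2157 and 2215 bp in KO. The lowest WT value was 339 bp above the highest KO value, the third widest such gap in WT replicate 3 among the members after TRIM62 and TRIM8. The peaks reached 3393, 2951 and 2378 bp into TRIM22 in the WT libraries and 2003, 2014 and 2111 bp in the KO libraries, and at most 459 bp upstream in any library. TRIM21, a cytosolic antibody receptor, had 2654, 2621 and 1502 bp in WT and 1406, 1254 and 1307 bp in KO, so WT replicate 3 was 96 bp above the highest KO library.

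TRIM5 and TRIM34, restriction factors that recognise retroviral capsids, had the shortest coverage of the list. TRIM5 had 1507, 1377 and 1121 bp in WT and 1096, 995 and 976 bp in KO. Its peaks began 413, 304 and 67 bp upstream of the 5′ end in WT and 48 bp upstream in KO replicate 1, and in KO replicates 2 and 3 they began 22 and 26 bp downstream of it, while the far end lay between 1001 and 1093 bp downstream in all 6. The ISRE core of TRIM5 shown above was therefore under the peak in the 3 WT libraries and KO replicate 1 and outside it in KO replicates 2 and 3. TRIM34 had 1418, 1677 and 1279 bp in WT and 1276, 1061 and 1193 bp in KO.

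TRIM56, a ligase of the STING and RNA sensing pathways, had 3465, 3222 and 1668 bp in WT and 1524, 1149 and 1207 bp in KO, a mean of 2785 bp ± 975 against 1293 bp ± 202 (SD, n = 3). TRIM38, a regulator of inflammatory signalling, had 3722, 2689 and 1536 bp in WT and 1611, 1442 and 1332 bp in KO, and KO replicate 1 lay above WT replicate 3. In WT replicate 1 the TRIM38 peak ran 5690 bp into the gene, against 2117 bp in WT replicate 2 and 1319 to 1384 bp in the other libraries. TRIM14, an adaptor at the mitochondrial antiviral protein MAVS, had 2215, 2757 and 1559 bp in WT and 1622, 1514 and 1416 bp in KO, again with an overlap. TRIM26, a ligase that acts on IRF3, had 4271, 3680 and 2314 bp in WT and 2120, 2259 and 2141 bp in KO.

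**Figure D3:**
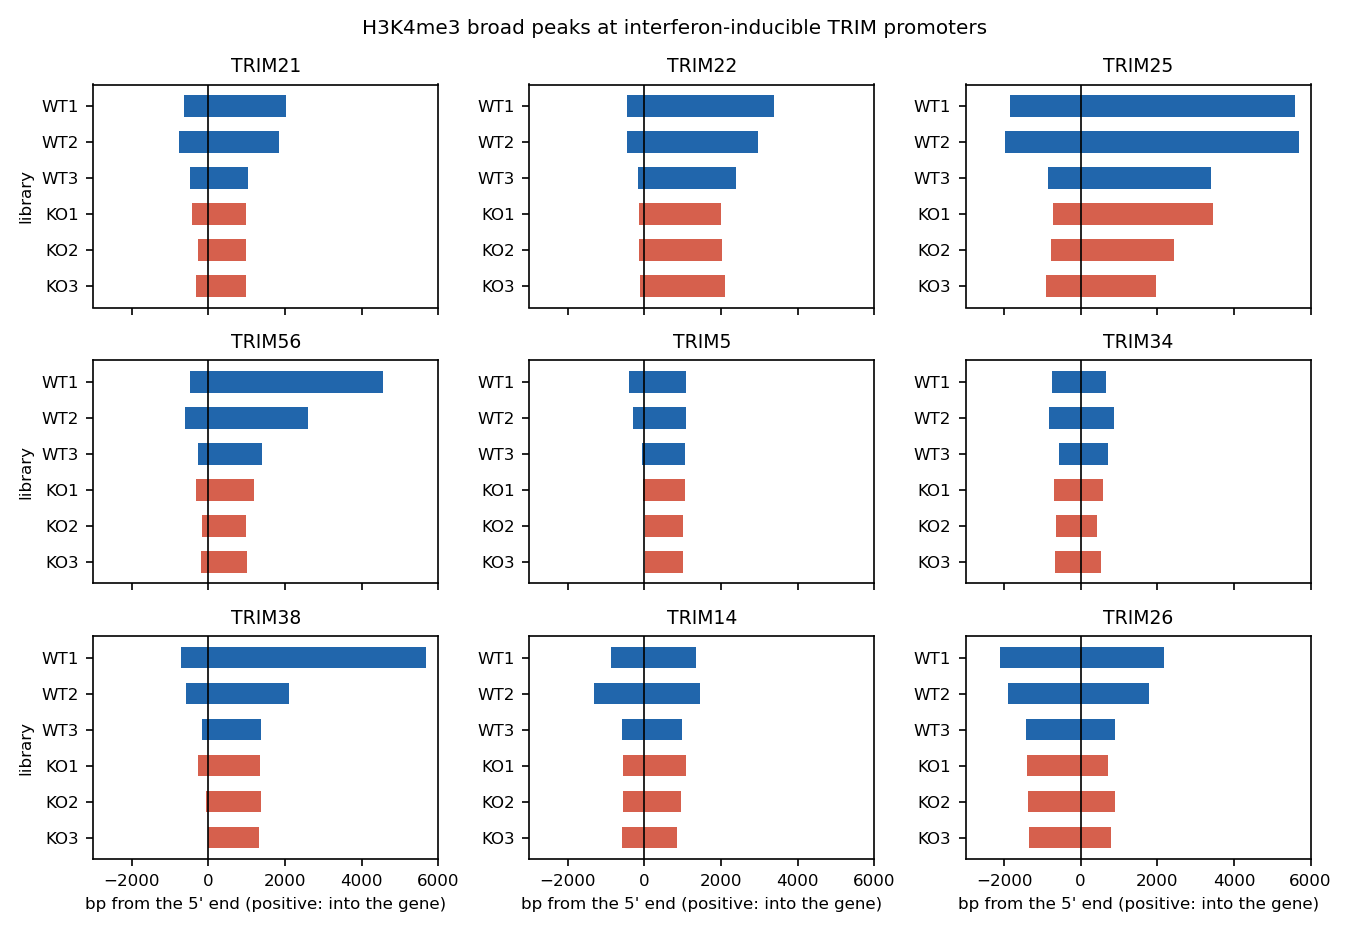
H3K4me3 broad peaks at the 9 interferon-inducible TRIM promoters called in all 6 libraries. Each bar is a peak in 1 library (blue WT, red KO), drawn by its distance in bp from the 5′ end (black line), with positive values into the gene; at TRIM22, TRIM5 and TRIM38 most of each bar lies to the right of the line.

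The peaks of the interferon-inducible members lay mostly downstream of the 5′ end. The share of covered length that was downstream had a median of 73.1% over the 9 members (quartiles 60.8% and 87.9%), of 61.8% over the other TRIM promoters called in all 6 libraries (55.7% and 72.9%) and of 62.6% over all promoters called in all 6. TRIM22 (91.4%), TRIM5 (90%) and TRIM38 (87.9%) were the most one-sided of the 9, and TRIM26 (41.4%) and TRIM34 (47.5%) were not. Outside the list, TRIM28, a corepressor of transposable elements, and TRIM24, a coregulator of nuclear receptors, had 88% and 85.9%. Some members with a low share lie next to another gene. TRIM66 (33%) started 127 bp from RPL27A, TRIM46 (44.8%) 545 bp from KRTCAP2 and TRIM23 (36.7%) close to TRAPPC13, and peaks cannot be assigned to 1 gene of such a pair. Others did not follow this: TRIM8 (44.5%) and TRIM36 (47.4%) had no other protein-coding 5′ end within 3 kb. TRIM39 (33%) had only that of its readthrough gene, and TRIM59, 43 bp from ENSG00000248710, had a share of 81.2%.

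Ranks within a library set each promoter against the others of the same list, but do not remove all of the difference between lists: TRIM62, for example, ranked far higher in WT replicate 3 than in WT replicates 1 and 2. The percentile of covered length among the covered promoters of a library was higher in every WT than in every KO library at 2 of the 46 TRIM promoters (4.35%), against a background of 7.13%. It was higher in every KO library at 6 (13%), against a background of 10.7%. The exact permutation p was 0.1 for these 8 promoters, with an adjusted p of 0.56 over all covered promoters. Without WT replicate 3 the counts were 10 and 13, for which no share over all promoters was computed.

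TRIM56 was 1 of the 2 promoters with a higher rank in WT, at percentiles 55.9, 50.2 and 29.5 in WT and 22.7, 12 and 19.5 in KO, a difference of 27.2. The higher rank of TRIM56 held over the 3 kb window only: with covered length counted within 1 kb, the difference was -10.4. The other was TRIM67, a neuronal member, at 10.1, 8.77 and 8.42 in WT and 7.31, 7.71 and 8.4 in KO, where WT replicate 3 and KO replicate 3 were nearly level. TRIM24 had the next largest difference, 22.2, at 64.9, 64.5 and 47.6 in WT and 52.8, 25.8 and 32.1 in KO, and its groups overlapped through KO replicate 1. The groups also overlapped at TRIM38 (10.8), TRIM7 (8.67) and TRIM37 (8.42). Without WT replicate 1 the difference was -2.18 at TRIM38 and 1.14 at TRIM37, and without WT replicate 2 it was 15 and 7.4. For WT replicate 3 against the KO libraries it was -6.62 and -8.18. The direction at TRIM38 thus rested on WT replicate 1, and that at TRIM37 on WT replicates 1 and 2.

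The 6 promoters with a higher rank in KO were covered by fewer separate peaks. TRIM6, a ligase of the interferon signalling kinase IKKε, and TRIM6-TRIM34 start 88 bp apart and had the same peaks, with percentiles of 62.8, 30.7 and 73.9 in WT and 82.3, 80 and 85.1 in KO. Their covered length was 3682, 2714 and 2389 bp in WT and 2557, 2295 and 2317 bp in KO, so the means of rank and of length differed in direction. The fold enrichment of the TRIM6 peak was 10.3 and 12.8 in WT replicates 1 and 2 and 3.38 in WT replicate 3. In the KO libraries it was 3.26, 3.9 and 3.56. Dropping peaks below a fold enrichment of 4 therefore removed the peak from WT replicate 3 and every KO library. With that cutoff the difference in rank at TRIM6 turned from -26.7 to 30.5, which is not a comparison of genotypes. TRIM39-RPP21 (-31.8) was covered by the peak of TRIM39, whose own percentiles of 62.7, 74.1 and 76.6 in WT and 89.2, 86.3 and 71.5 in KO overlapped. The remaining 3 were TRIM36 (-10.2), TRIM46 (-9.52) and TRIM66 (-6.19).

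**Figure D4:**
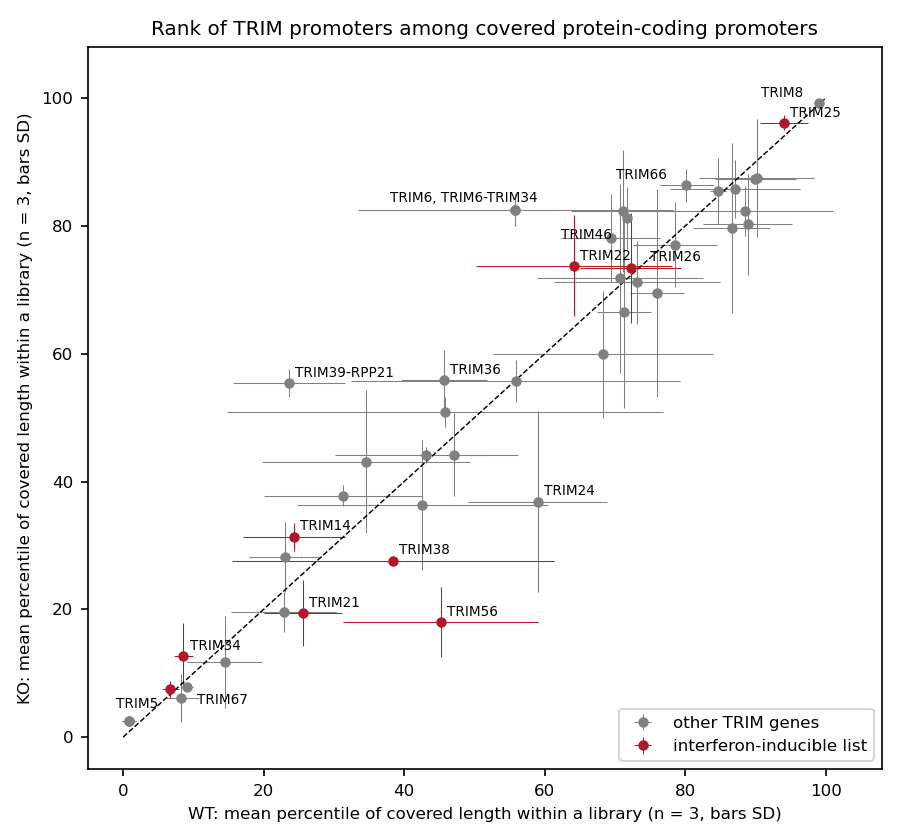
Mean percentile of covered length within a library, WT on the horizontal and KO on the vertical axis, for the 46 covered TRIM promoters; bars are the SD over 3 libraries and the dashed line marks equal rank. Points lie on both sides of the line. TRIM56 (45.2 in WT, 18 in KO) and TRIM24 (59 and 36.9) lie below it, and TRIM39-RPP21 (23.6 and 55.4) and the shared point of TRIM6 and TRIM6-TRIM34 (55.8 and 82.5) lie above it.

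Between lists of the same kind, 1 of 46 TRIM promoters was at least 500 bp longer in WT replicate 3 than in every KO library, against a background of 5.53%, and none was at least 500 bp longer in every KO library, against a background of 0.455%. With 1 WT library this has no test. The promoter was that of TRIM62, a ligase involved in epithelial polarity, with 2622, 2605 and 2595 bp in WT and 1883, 1785 and 1687 bp in KO. TRIM62 showed no drop in WT replicate 3, and its peaks reached 712, 640 and 892 bp upstream in WT and 307, 220 and 167 bp upstream in KO. Its percentile was 28.8, 27 and 81.7 in WT and 48.1, 52.1 and 52.3 in KO, with no separation of the groups. Just below 500 bp were TRIM8 (391 bp), TRIM22 (339 bp) and TRIM13 (332 bp), and in the other direction the peak shared by TRIM10 and TRIM15 (479 bp).

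The widest TRIM promoters were led by TRIM8, a ligase of cytokine signalling, with 5979, 6001 and 4962 bp in WT and 4571, 3793 and 4058 bp in KO. TRIM8 was at or above the 98th percentile in every library, and its peaks filled the whole window of 6001 bp in WT replicate 2. TRIM11, TRIM33 and TRIM41 followed TRIM25 and were wide mainly in WT replicates 1 and 2. TRIM11, a ligase of protein quality control, had 6001, 4577 and 2634 bp in WT and 2458, 2490 and 3165 bp in KO. TRIM33, a regulator of SMAD signalling, had 5026, 4937 and 2645 bp in WT and 2783, 2520 and 2379 bp in KO, and TRIM41 5174, 5464 and 2395 bp in WT and 2441, 2356 and 2353 bp in KO. At TRIM11, TRIM33 and TRIM41 the genotypes overlapped, since at least 1 KO library lay above WT replicate 3.

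The within-list rank of fold enrichment was lower outside WT replicates 1 and 2 at some interferon-inducible members and higher at others. At TRIM25 the fold enrichment of the peak stood at the 91.4th and 85.9th percentile of the list in WT replicates 1 and 2, at the 1.8th in WT replicate 3 and between the 1.5th and 16.7th in the KO libraries. At TRIM21 it stood at 58.7 and 71.4 in WT replicates 1 and 2, at 87.3 in WT replicate 3 and between 87 and 94.8 in KO. In both genes WT replicate 3 was with the KO libraries. TRIM26 went as TRIM25 did, at 87.6 and 81.6 in WT replicates 1 and 2 and 33.5 to 44.5 in the others. TRIM5 (49.5 and 55.1 against 89.5 to 95.6) went as TRIM21 did. So did TRIM56 (43.1 and 53.4 against 63.8 to 90.5) and TRIM34 (31.1 and 34.2 against 45 to 77.9). TRIM14 stayed between 67.9 and 87.6 in all 6 libraries. TRIM38 stayed between 43.9 and 60.8 in all 6 libraries and TRIM22 between 26.3 and 48.4.

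As a frame for the family, all 9 listed partners of the RIG-I pathway, in which TRIM25, TRIM14 and TRIM56 act, were called in all 6 libraries, against 65.1% of all promoters. 6 of the 9 were longer in every WT library, against 50.8% of all covered promoters. Of the markers checked for the identity of the line, RUNX2, COL1A1 and SPARC of 8 osteoblast genes were called in all 6 libraries and SPP1 in 2, and SP7, ALPL, BGLAP and COL1A2 in none. Of 9 genes of other cell types, EPCAM was called in all 6. The leukocyte genes PTPRC, CD3E and CD79A, the epithelial gene CDH1, the muscle gene MYOG and the hepatocyte gene ALB were called in none. MYOD1 was called in the 3 WT libraries and in none of the KO libraries, as were 0.159% of the promoters called in all WT libraries. Peaks still lay within 3 kb of MYOD1 in all 6, with 2082, 2258 and 1799 bp in WT and 1477, 1372 and 1204 bp in KO.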

How the data were processed

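H3K4me3 ChIP-seq peak lists of 3 WT and 3 ZBTB48 KO U2OS clones, all treated with IFNγ, were analysed, with genotype and replicate number taken from the sample labels. The 2 WT input samples were not used here. The authors, according to their methods, trimmed adapters (trimmomatic), mapped to GRCh38 with bowtie2 2.3.5.1, discarded duplicates and reads without a unique place, and ran MACS2 2.1.1.2 on each library for broad peaks, with paired ends and the default threshold. Whether an input was given to the caller for each list is not given in the sources used here. Each peak carries, as deposited, a fold enrichment, the ratio of ChIP signal over local background, together with −log10 of its p and q. These were used to rank or filter peaks within a list and to filter all lists by the same cutoff. The median fold enrichment was also used to describe each list. The deposited score is an integer display value and was not used. The lists hold no counts, so depth is unknown here, and a missing peak means only that none was called. The authors' differential test on reads was not repeated.

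Promoters, calls, covered lengths, percentiles and motif matches were computed in Python 3.11.15 with numpy 2.4.6, pandas 2.3.3 and pysam 0.24.0, on chromosomes 1 to 22, X and Y, and figures were drawn with matplotlib 3.10.9. Promoters were compared by the exact permutation test on the difference of means, two-sided, over all 20 ways to assign 6 libraries to genotypes, with Benjamini-Hochberg adjustment over 14422 covered promoters, and the steps were tested on simulated data. Sequences were read from the GRCh38 genome. The upstream sequence of 1 member and the calls of 1 marker gene are not reported here. The members and lists were chosen with earlier results of these data known. Genes given with values were the interferon-inducible list, members called in 1 to 5 libraries, members called at another 5′ end only, in at least 3 libraries, the 5 widest, the 5 with the largest and the 5 with the lowest difference in percentile, and examples of each list. TRIM54, TRIM62, TRIM13, TRIM67 and the promoters named for CpG content or shape were chosen after their values were seen. No 2 lists shared more than 2 identical peaks.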

Additional observations from a re-analysis of the deposited data

How the results depend on the processing

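No setting gave a test that could pass 0.05, so directions and counts are compared. No share over all promoters was computed for the counts under other settings in this section. They cannot be read as results about the TRIM family. The difference of 0.667 TRIM promoters called per library (WT minus KO) was 9 without peaks below a fold enrichment of 4, -0.667 with the 1 kb and 3 kb windows exchanged, -0.333 when at least 500 bp of the window had to be covered and -0.667 for WT replicate 3 against the KO libraries. The cutoff of 4 lies far below the median fold enrichment of WT replicates 1 and 2 (13.4 and 14) and close to that of the other lists (4.19 to 4.65). It acts unequally on the kinds of list, so values under this cutoff cannot be read as a comparison of genotypes. With fold enrichment of at least 4 the interferon-inducible members differed by 0.667 in place of 0, 20 TRIM promoters were called in all libraries, 11 were longer in every WT library, and the percentile was higher in every WT library at 1 and in every KO library at 2. With −log10 q of at least 3, or an equal number of peaks per list, it was higher in every WT library at 1. With the windows exchanged the median lengths differed by 337 bp, and the percentile was higher in every WT library at 1 and in every KO library at 11. For WT replicate 3 against the KO libraries the medians differed by 232 bp, 3 promoters were longer in every KO library, the percentile was higher in WT at 9 and in KO at 17, and 1 promoter, TRIM15, was called only in KO.

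The percentile difference at TRIM6 and at TRIM6-TRIM34 was 30.5 with fold enrichment of at least 4. With the windows exchanged it was 0.471 at TRIM39-RPP21 and -10.4 at TRIM56. The cause was not tested for any of these. With any 1 library left out, all 23 named promoters kept the sign of the difference in covered length, and 20 to 23 kept that of the percentile, with 20 without WT replicate 1 or KO replicate 3. For WT replicate 3 against the KO libraries 18 of the 23 kept the sign of covered length and 13 that of the percentile.

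Leaving out each library in turn gave 20 to 44 promoters longer in every WT library, with 44 without WT replicate 3 and 37 without KO replicate 1, and 0 to 2 longer in every KO library, with 2 without WT replicate 1 or KO replicate 3. The percentile was higher in every WT library at 2 to 10 (10 without WT replicate 3, 6 without KO replicate 1, 4 without WT replicate 1 or KO replicate 3) and in every KO library at 7 to 13 (13 without WT replicate 3). Between 0 and 1 promoter was called only in WT (TRIM72, without KO replicate 1).

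Deviations from the group means of same-numbered clones correlated at -0.01, 0.017 and 0.093, and those of unlike-numbered clones between -0.118 and 0.079. The WT deviations carry the difference between kinds of list, so these values cannot decide whether replicate numbers pair the samples. The replicate block counted TRIM promoters higher in the same genotype in all 3 pairs. With it, 41 were longer in WT and 2 in KO. The percentile was higher in WT at 4 and in KO at 12. The same counts over all promoters were not made, so these do not set the TRIM family apart.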
